A study of Mus musculus with 9 samples.

Results

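The 39 Hox genes of the mouse were examined in RNA from 9 uterus libraries. They were chosen by symbol alone, as every line whose symbol is Hox followed by a cluster letter from a to d and a gene number. That gave 39 of the 34619 unique symbols in the deposited files: 11 genes of the Hoxa cluster, 10 of Hoxb, 9 of Hoxc and 9 of Hoxd. The uteri came from wild-type females of the outbred stock CD-1 (ICR), bought at 7 to 8 weeks of age. One group of 3 libraries came from mice given bisphenol B (BPB) at 300 µg per kg of body weight per day for 28 days by gavage, and a second group of 3 from mice given bisphenol AF (BPAF) at that dose for that time. The 3 controls received the corn oil vehicle alone. Both compounds are relatives of bisphenol A that differ in the groups on the carbon between the rings, a methyl and an ethyl in BPB and trifluoromethyls in BPAF. All mice were fed an estrogen-free diet. The cycle stage is not given in the sources used here, and nothing in the labels says that the 3 libraries of a group came from separate mice, so that the p-values measure the spread between libraries, which may be technical in part.

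Hox genes encode transcription factors with a homeodomain, and their order along each cluster mirrors the order in which they are used along the body axis, low numbers towards the head and high numbers towards the tail. Genes with the same number in different clusters are paralogues. In the female reproductive tract the Hoxa cluster is known for its stepwise use along the Müllerian duct: Hoxa9 in the oviduct, Hoxa10 in the uterus, Hoxa11 in the lower uterus and cervix, and Hoxa13 in the cervix and upper vagina. Group 13 genes are also known from the urogenital sinus, the hindgut and the genital tubercle. Adult uterus keeps Hoxa10 and Hoxa11, which are required for implantation in the mouse.

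The promoters of the 5 Hox genes that the results turn on are shown so that the genes that stood apart between groups can be read beside those that did not. Each runs from 250 bases before to 50 bases after the start, 5′ to 3′ on the gene's own strand, and comes from RefSeq on GRCm38.p6. Of the 39 genes, 22 matched an entry in that table, with 24 starts. Capitals mark GGGCGG, the GC box, and CCAAT, each on either strand, and these marks were chosen after the matches were seen. Hoxa10 has 2 starts in the table, and the first is shown.
Hoxa13, chr6:52260831-52261130, minus strand: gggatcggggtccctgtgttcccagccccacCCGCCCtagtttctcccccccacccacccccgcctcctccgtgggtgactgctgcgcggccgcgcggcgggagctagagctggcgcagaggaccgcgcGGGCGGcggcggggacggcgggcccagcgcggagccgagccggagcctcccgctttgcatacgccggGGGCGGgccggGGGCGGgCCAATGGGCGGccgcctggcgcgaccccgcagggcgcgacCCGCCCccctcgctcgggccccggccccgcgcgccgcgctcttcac
Hoxd13, chr2:74667975-74668274, plus strand: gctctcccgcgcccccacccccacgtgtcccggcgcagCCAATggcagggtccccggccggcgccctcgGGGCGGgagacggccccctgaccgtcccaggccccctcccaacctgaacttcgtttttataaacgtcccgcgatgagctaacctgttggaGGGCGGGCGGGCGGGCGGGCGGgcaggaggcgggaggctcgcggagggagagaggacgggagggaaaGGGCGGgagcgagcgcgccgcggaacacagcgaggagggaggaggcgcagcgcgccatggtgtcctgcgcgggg
Hoxa7, chr6:52218524-52218823, minus strand: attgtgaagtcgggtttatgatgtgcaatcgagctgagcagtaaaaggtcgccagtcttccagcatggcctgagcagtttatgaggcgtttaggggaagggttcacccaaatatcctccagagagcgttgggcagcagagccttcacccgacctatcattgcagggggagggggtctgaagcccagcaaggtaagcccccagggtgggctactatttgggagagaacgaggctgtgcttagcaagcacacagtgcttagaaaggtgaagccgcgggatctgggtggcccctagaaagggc
Hoxa10, chr6:52240805-52241104, minus strand: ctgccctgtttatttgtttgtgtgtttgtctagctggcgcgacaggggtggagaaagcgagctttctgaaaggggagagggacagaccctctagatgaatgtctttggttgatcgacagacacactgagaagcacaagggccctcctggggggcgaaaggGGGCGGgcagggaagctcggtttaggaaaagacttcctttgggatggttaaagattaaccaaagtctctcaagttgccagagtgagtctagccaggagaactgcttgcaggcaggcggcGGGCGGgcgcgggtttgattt
Hoxa11, chr6:52245761-52246060, minus strand: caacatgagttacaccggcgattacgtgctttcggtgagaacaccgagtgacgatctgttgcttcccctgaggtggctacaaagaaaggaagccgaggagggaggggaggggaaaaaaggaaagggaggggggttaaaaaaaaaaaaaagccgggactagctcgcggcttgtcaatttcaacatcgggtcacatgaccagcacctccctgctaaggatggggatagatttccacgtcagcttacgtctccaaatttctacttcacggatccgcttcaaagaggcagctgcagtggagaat

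The 2 group 13 promoters were the richest in G and C of these 5, at 81.0% for Hoxa13 and 74.3% for Hoxd13, against 55.7% for Hoxa7, 54.3% for Hoxa10 and 51.0% for Hoxa11. The median over the 24 Hox promoters was 57.7% and that over all 32851 promoters 52.7%. GGGCGG was found 6 times in Hoxa13 and 7 times in Hoxd13, where 5 of the matches overlap one another, and 2 times in Hoxa10; the Hoxa7 and Hoxa11 windows held none. CCAAT was found 1 time each in Hoxa13 and Hoxd13 and not in the others. A further pair of motifs were searched on both strands: TATAAA, found in Hoxd13 alone, at 2 overlapping places, and TTTATNG, found in none of the 5. Over all promoters GGGCGG was held by 35.7%, CCAAT by 37.4%, TATAAA by 13.6% and TTTATNG by 10.9%. Over the 24 Hox promoters the shares were 41.7%, 62.5%, 16.7% and 8.33%. A match describes the letters only.

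Levels are given as FPKM, fragments scaled to gene length and library total, which is per length and so lets genes be compared with one another. Library totals read from the steps of the values ran from 12620196 to 15616775 reads, and 11614 to 13105 genes reached 1 FPKM. Uterine marker lists were present in every library: the mean log2(FPKM + 1) of 12 epithelial genes ran from 4.98 to 5.76 and that of 10 stromal genes from 5.77 to 7.12. A list of 15 genes of the urothelium, the lining of the bladder, set libraries apart within a group. Its mean log2(FPKM + 1) was 5.83, 6.45 and 6.59 in the BPB libraries and 5.66, 0.86 and 0.69 in the BPAF libraries, against 0.82, 0.83 and 1.29 in the controls. Its summed level was 2190 to 3689 FPKM in BPB, 16.2 to 1903 FPKM in BPAF and 31.2 to 90.9 FPKM in controls, and Upk3a, a protein of the urothelial plaque, was listed at 0 in all 3 controls. Control 3 had 34.1% of its FPKM in mitochondrial genes, against 14.02% to 27.04% in the other 8 libraries. Gapdh was at 1.38 to 3.47 FPKM in all 9 libraries, so reads of genes with near-identical copies may be lost in these values.

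Most of the adult uterine Hox signal came from a few genes of the Hoxa, Hoxb and Hoxd clusters. Over all 9 libraries Hoxa11 averaged 38.9 FPKM, Hoxa10 36.3 FPKM and Hoxd10 31.5 FPKM, the 3 highest, followed by Hoxd9 at 25.5 FPKM and Hoxb7 at 22.9 FPKM. Of the 39 genes, 27 were above 0 in every library, 15 reached 1 FPKM in every library and 7 reached 5 FPKM in every library. Hoxc12 was listed at 0 throughout.

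The Hoxc cluster was close to silent. Its 9 genes summed to 5.43, 4.35 and 5.33 FPKM in BPB and 4.14, 1.87 and 3.75 FPKM in BPAF, against 2.62, 2.41 and 0.90 FPKM in controls, out of 122 to 467 FPKM for all 39 genes. The 3 clusters with more signal shared it unevenly. The Hoxa share of the Hox total was 35.7% to 44.9% in BPB and 22.1% to 50.8% in BPAF, against 22.1% to 29.7% in controls. The number of Hox genes at 1 FPKM or more was 22, 23 and 25 in the BPB libraries and 22, 17 and 21 in the BPAF libraries, against 15, 19 and 15 in the controls, with BPAF 2 inside the control range.

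**Figure D1:**
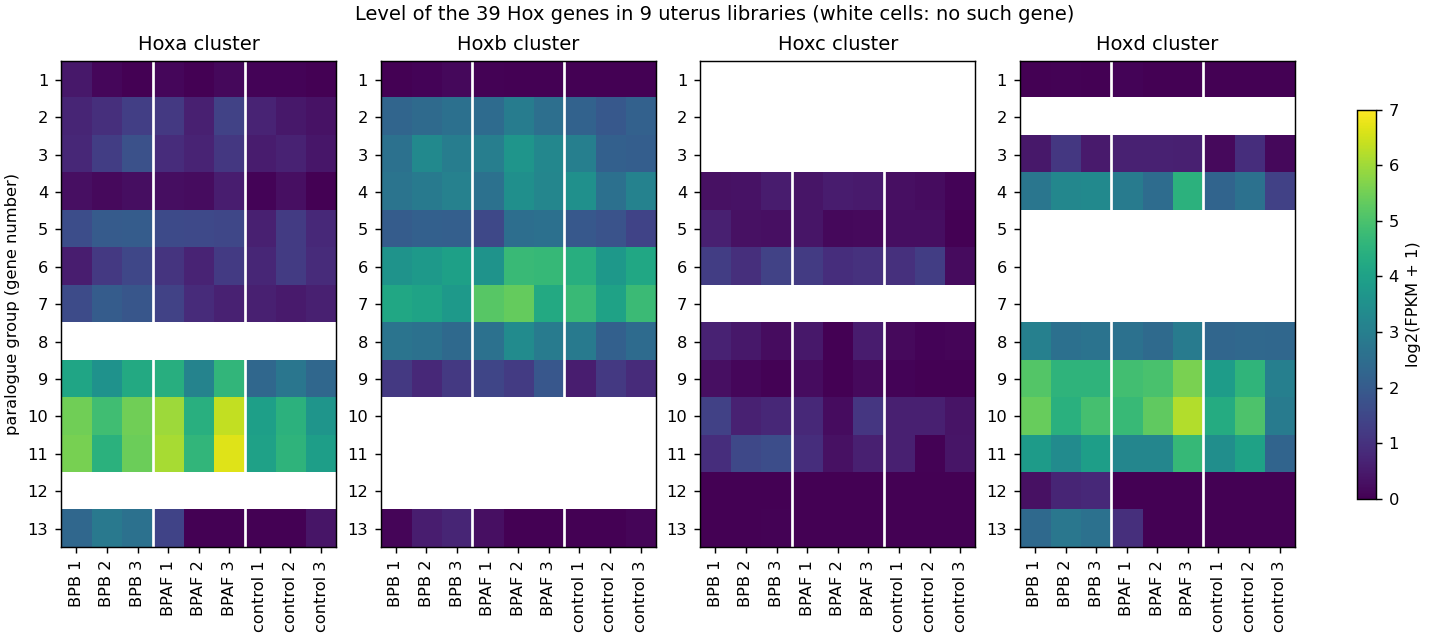
Level of each Hox gene as log2(FPKM + 1) (colour) by gene number (rows) and library (columns), 1 panel per cluster, libraries in the order BPB, BPAF, control; white cells have no gene. Groups 9 to 11 of Hoxa and Hoxd and groups 6 and 7 of Hoxb carry most of the signal. The group 13 rows of Hoxa and Hoxd show a signal in the 3 BPB libraries, below that of groups 9 to 11 there, and a fainter one in BPAF 1.

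For tests, a gene had to reach 1 FPKM in 3 or more of the libraries, a rule that 13743 genes and 24 of the 39 Hox genes passed: 9 of Hoxa, 8 of Hoxb, 1 of Hoxc and 6 of Hoxd. The 15 others never passed 2.18 FPKM (Hoxc11 in BPB 3). Hoxa2, Hoxa3, Hoxa7, Hoxa13 and Hoxd13 reached 1 FPKM in no control, so they entered through the exposed libraries alone and counts over the 24 carry that choice. Differences are of mean log2(FPKM + 1) and were tested with limma, with Benjamini-Hochberg adjustment over all 13743 genes; a gene was called at an adjusted p under 0.05.

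The terminal genes Hoxa13 and Hoxd13 were at 4.05 to 6.14 FPKM in the BPB libraries and at or near 0 elsewhere, except in 1 BPAF library. Hoxd13, a factor of the genital tubercle, the hindgut and the digits, was at 4.22, 5.91 and 5.08 FPKM in BPB and 0.91, 0 and 0 FPKM in BPAF, while the 3 controls were listed at 0. These values correspond to 153, 229 and 169 reads in BPB and 29, 0 and 0 reads in BPAF. Hoxa13, the most tail-ward gene of the Hoxa cluster, was at 4.05, 6.14 and 5.10 FPKM in BPB and 1.64, 0 and 0 FPKM in BPAF, against 0, 0.0123 and 0.33 FPKM in controls. The 3 BPB libraries were the 3 highest for both genes, BPAF 1 came next for both, and BPB did not overlap with either other group.

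Hoxd13 rose in BPB against control (log2 difference 2.59, SE 0.28, limma adjusted p = 0.0105), as did Hoxa13 (2.45, SE 0.38, limma adjusted p = 0.0213). A fold change is not given, since controls were listed at or near 0. In BPAF against BPB, Hoxd13 fell (-2.28, SE 0.28, limma adjusted p = 0.0414). With the replicate number as a block its limma adjusted p was 0.181, and with the 6 libraries of that comparison and the block 0.234, and it was then no longer called. It also lost the call in 7 of the 9 leave-outs, all but those of BPB 1 and BPAF 1 (limma adjusted p 0.0608 to 0.204), with the 6 libraries alone (0.144) and with pseudocounts of 0.1 (0.206) and 0.01 (0.571) in place of 1. Hoxa13 in BPAF against BPB did not pass (-2.13, 95% interval -2.98 to -1.28, limma adjusted p = 0.0678), and of the leave-outs it passed in 1, without BPAF 1.

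The BPB calls were close to the threshold and depended on single libraries. Hoxd13 lost its call without BPB 2 (limma adjusted p = 0.0642), BPB 3 (0.0541) or control 1 (0.0658). Hoxa13 lost it in 5 of the 9 leave-outs, without BPB 2, BPB 3 or any 1 of the controls (0.0519 to 0.108), and with the replicate block (0.0574). In these leave-outs the difference stayed between 2.33 and 2.59 for both genes.

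The remaining terminal genes were too low to enter the test. Hoxd12, the neighbour of Hoxd13, was at 0.24, 0.66 and 0.77 FPKM in BPB, from 9, 26 and 26 reads, and was listed at 0 in all BPAF and control libraries. Hoxb13, known from the prostate, the hindgut and the tail, was at 0.0621, 0.46 and 0.64 FPKM in BPB and 0.21, 0 and 0 FPKM in BPAF, against 0, 0 and 0.0718 FPKM in controls. Hoxc13, known from hair and nail, had 1 read in 1 BPB library and was otherwise listed at 0. Without the filter, Hoxd12 in BPB against control had a log2 difference of 0.62 (limma adjusted p = 0.0622).

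**Figure D2:**
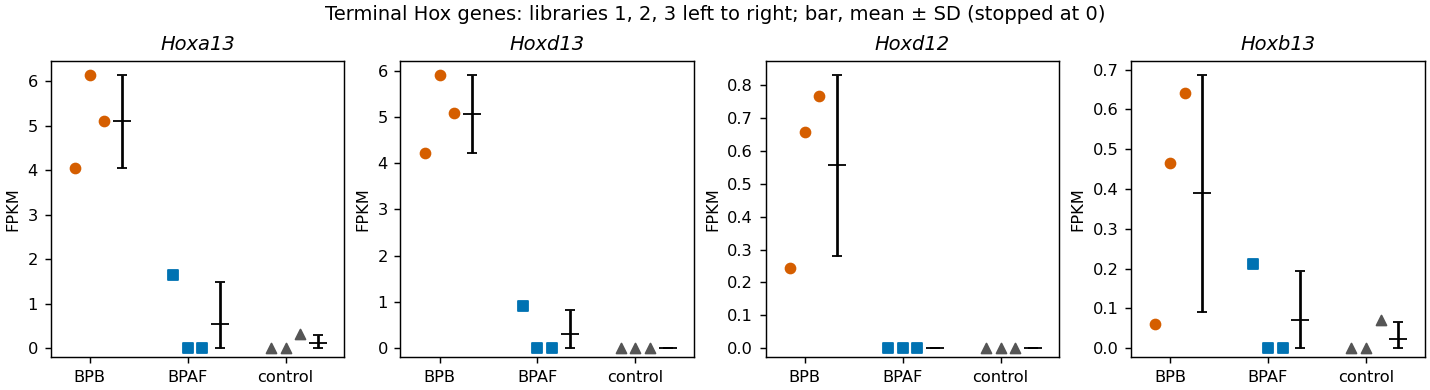
FPKM of 4 terminal Hox genes by group, with 1 point per library in the order 1, 2, 3 and the mean with SD beside them (n = 3 per group, lower bars stopped at 0); each panel has its own scale. The 3 BPB points of Hoxa13 (4.05 to 6.14 FPKM) and Hoxd13 (4.22 to 5.91 FPKM) lie above all others, and where any BPAF library is above 0 it is BPAF 1.

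Urothelial genes were also high in the 3 BPB libraries and in BPAF 1. Of 14 tested urothelial genes 11 rose in BPB against control, against 2.05% of all genes tested. Of the 11, Gata3, Snx31, Trp63, Upk2 and Upk3a reached 1 FPKM in no control. They entered the test through the exposed libraries, so nothing is read from that share. The count of 11 became 0 without BPB 2, BPB 3 or any 1 of the controls and with the replicate block. It was 3 without BPB 1 or with a pseudocount of 0.1, 0 with one of 0.01 and 1 with no filter. BPAF 1 had a urothelial mean of 5.66 on the log2(FPKM + 1) scale, beside 5.83 in BPB 1. Its Hoxa13 and Hoxd13 together were at 2.55 FPKM, against 8.27 FPKM in BPB 1. On the log2(FPKM + 1) scale the other position factors, described below, had a mean of 0.84 in BPAF 1 and 1.19 in BPB 1. Their mean was 0.30 to 0.33 in controls. The smooth muscle list, 10 genes of contractile tissue, had a mean log2(FPKM + 1) of 8.50, 8.84 and 9.32 in BPB. It was 7.25, 7.07 and 5.84 in BPAF, against 7.59, 8.08 and 7.05 in controls. BPAF 1 thus lay below 2 of the controls. In BPAF against BPB all 10 genes had an unadjusted limma p under 0.05, with 0 higher, beside 6.75% of all genes in either direction. In BPB against control 7 of the 10 were higher at that p, beside 12.8% of all genes. Of these, 1 was called, so that Synm rose in BPB. Of 5 tested skeletal muscle genes 2 rose, Ckm and Myh2, and Myh2 reached 1 FPKM in the BPB libraries alone. Of 8 adipocyte genes 1 rose, Pparg, and of 4 mesothelial genes 1 rose, Upk3b, which is also 1 of the 11 urothelial genes. Pparg was at 15.7 FPKM in BPB 3, 11.06 FPKM in BPAF 1 and 1.32 FPKM in BPAF 3. The adipocyte list had a mean log2(FPKM + 1) of 2.56, 4.58 and 3.92 in those libraries, so Pparg did not follow its list. Their part in the Hox results was not tested, and in bulk RNA more cells of a type and more RNA per cell cannot be told apart.

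**Figure D3:**
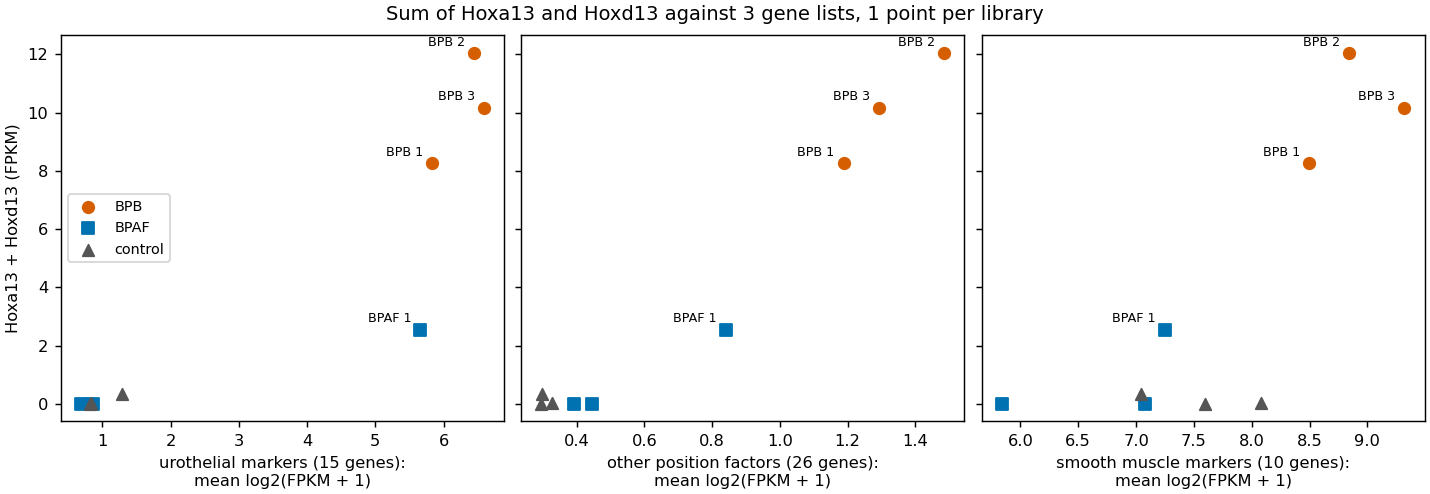
Sum of Hoxa13 and Hoxd13 in FPKM (vertical) against the mean log2(FPKM + 1) of 3 gene lists (horizontal), 1 point per library. The 3 BPB libraries lie at the upper right in each panel. BPAF 1, at 2.55 FPKM of Hoxa13 and Hoxd13, lies near them along the horizontal axis for the urothelial list. It lies between them and the controls for the other position factors, and within the control range for smooth muscle.

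Hoxa7, a gene of the trunk, was the third Hox gene called. It was at 2.04, 3.07 and 2.67 FPKM in BPB and 1.60, 0.81 and 0.57 FPKM in BPAF, against 0.54, 0.43 and 0.54 FPKM in controls. The groups did not overlap, with BPB highest, BPAF between and controls lowest. Hoxa7 rose in BPB against control (log2 difference 1.25, SE 0.25, limma adjusted p = 0.0382). It lost that call in 6 of the 9 leave-outs (limma adjusted p 0.0542 to 0.155) and with the replicate block (0.0901). In BPAF the difference from control was 0.38 (95% interval -0.18 to 0.93, limma adjusted p = 0.539), and BPAF minus BPB was -0.87 (-1.43 to -0.32, limma adjusted p = 0.309). Hoxa7 shares 586 exon bases with the antisense gene Hoxaas3, and since the strand setting of the counting is not given, their reads cannot be told apart.

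The uterine Hoxa genes were higher on average in both exposed groups, with wide spread in BPAF. Hoxa10, the uterine gene of the series, was at 43.8, 27.7 and 43.8 FPKM in BPB and 61.5, 20.4 and 81.3 FPKM in BPAF, against 14.5, 21.8 and 11.5 FPKM in controls. Hoxa11 was at 46.1, 21.1 and 41.8 FPKM in BPB and 66.5, 23.2 and 99.8 FPKM in BPAF, against 15.2, 22.6 and 14.3 FPKM in controls. Hoxa9, the oviduct gene, was at 16.5, 10.9 and 18.1 FPKM in BPB and 19.8, 7.76 and 23.4 FPKM in BPAF, against 4.03, 5.72 and 4.04 FPKM in controls. BPAF 3 and BPAF 1 were the 2 highest libraries for all 3 genes and BPB 1 and BPB 3 the next 2, while BPAF 2 and BPB 2 were the lowest exposed libraries.

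None of the 3 was called in any of the comparisons with all 9 libraries. Hoxa9 was called in BPB against control without BPAF 2 (limma adjusted p = 0.0263) and with the 6 libraries of the comparison alone (0.0314), and Hoxa9 and Hoxa10 in the joint test without BPAF 2. In BPB against control the log2 difference was 1.52 for Hoxa9 (SE 0.39, limma adjusted p = 0.0761), 1.24 for Hoxa10 (SE 0.48, limma adjusted p = 0.223) and 0.98 for Hoxa11 (SE 0.51, limma adjusted p = 0.368). In BPAF against control it was 1.57 (95% interval 0.70 to 2.44, limma adjusted p = 0.267) for Hoxa9, 1.55 (0.46 to 2.64, 0.304) for Hoxa10 and 1.61 (0.45 to 2.76, 0.304) for Hoxa11. The 2 comparisons share their controls. BPAF minus BPB was 0.0513 (-0.82 to 0.92) for Hoxa9, 0.31 (-0.77 to 1.40) for Hoxa10 and 0.63 (-0.53 to 1.78) for Hoxa11, so that differences of either sign fit within these intervals. The ratio of Hoxa11 to Hoxa10 stayed between 0.76 and 1.25 in all 9 libraries.

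Hoxa11os, the antisense transcript opposite Hoxa11, was at 21.4, 8.04 and 15.8 FPKM in BPB and 15.7, 5.03 and 42.2 FPKM in BPAF, against 2.45, 3.90 and 4.33 FPKM in controls, higher in every exposed library than in any control. It was called in no comparison (BPAF against control 1.87, SE 0.63, limma adjusted p = 0.309). It shares 800 exon bases with Hoxa11, so their reads may not be separate.

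Hoxd10, known from the lumbar spinal cord and the limb, was at 40.5, 20.9 and 29.4 FPKM in BPB and 25.3, 37.8 and 72.5 FPKM in BPAF, against 18.6, 32.3 and 6.54 FPKM in controls. The groups overlapped. Its log2 difference from control was 0.83 in BPB (SE 0.56, limma adjusted p = 0.501) and 1.31 in BPAF (SE 0.56, limma adjusted p = 0.376).

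The most abundant Hoxb genes, trunk genes by position, overlapped between exposed and control uteri. Hoxb7 was at 17.0, 15.8 and 12.6 FPKM in BPB and 35.4, 39.5 and 18.1 FPKM in BPAF, against 25.8, 15.2 and 26.4 FPKM in controls. Hoxb6 was at 11.2, 12.9 and 14.6 FPKM in BPB and 11.2, 25.98 and 24.6 FPKM in BPAF, against 19.8, 12.3 and 17.2 FPKM in controls. BPAF lay above BPB without overlap for Hoxb7 only, and both exposed groups overlapped with controls for both genes. In BPB against control the log2 differences were -0.51 for Hoxb7 (limma adjusted p = 0.493) and -0.31 for Hoxb6 (limma adjusted p = 0.707), the lowest 2 of the 24, and neither passed. BPAF minus BPB was 0.93 for Hoxb7 (95% interval 0.16 to 1.69, limma adjusted p = 0.539).

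**Figure D4:**
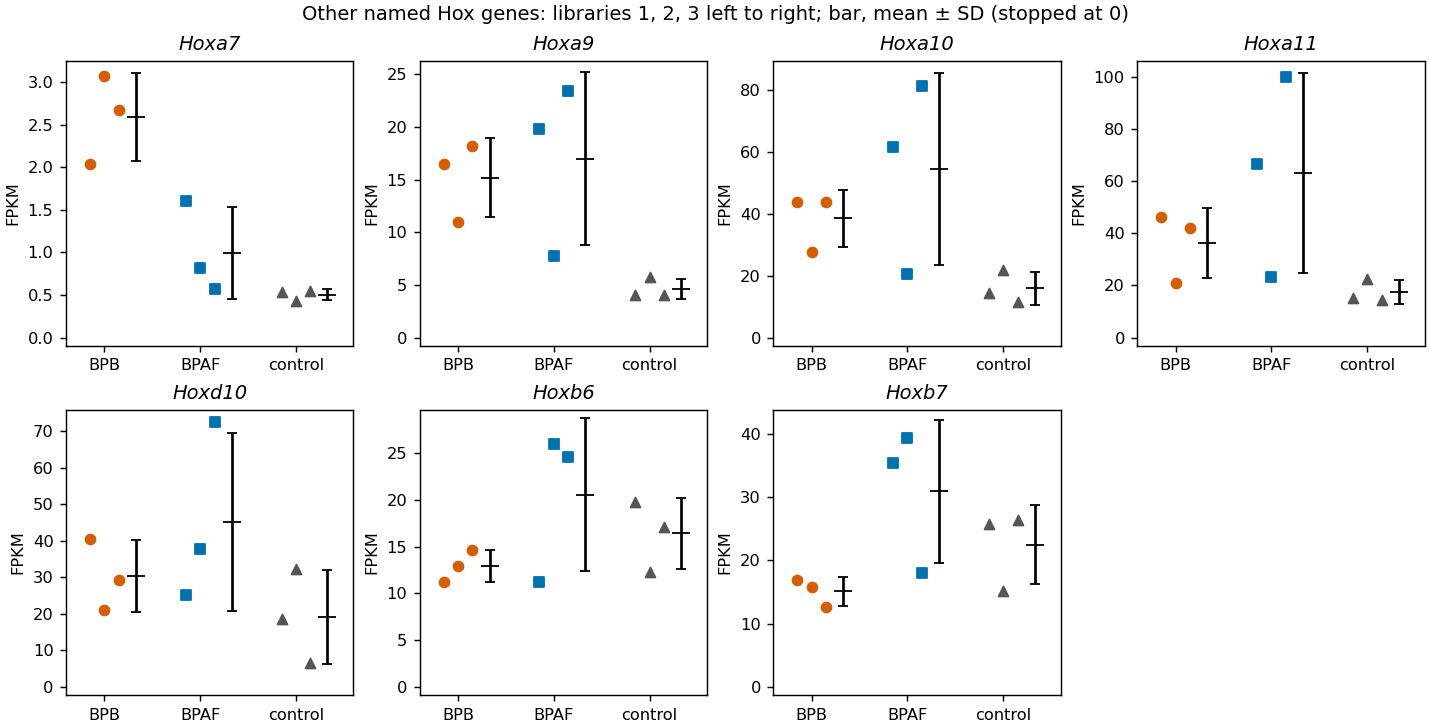
FPKM of 7 further Hox genes by group, with 1 point per library in the order 1, 2, 3 and the mean with SD beside them (n = 3 per group); each panel has its own scale. BPAF 1 and BPAF 3 are the highest points of Hoxa9, Hoxa10 and Hoxa11 (up to 99.8 FPKM in Hoxa11), BPAF 2 lies near the controls, and Hoxa7 is the only panel in which the 3 groups do not overlap.

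Counted over the 24 tested genes, 3 rose and 0 fell in BPB against control (12.5%), against 2.55% of all genes tested (282 higher, or 2.05%, and 69 lower, or 0.502%). All 3 reached 1 FPKM in exposed libraries alone and 0 of the other tested Hox genes were called, so nothing is read from that share. With scaling by the median of ratios the split over all genes was 204 higher of 312 called. In BPAF against control 0 of 24 were called by limma, against 0.0218% of all genes tested (0.00728% higher and 0.0146% lower). In that comparison 10 had an unadjusted p under 0.05 (41.7%), all higher, against 12.8% of all genes in either direction and 10% higher. In BPB against control the count was 8 (33.3%), all higher, against 17.4% of all genes in either direction and 12.8% higher. Of the 8, Hoxa3, Hoxa7, Hoxa13 and Hoxd13 reached 1 FPKM in no control. In BPAF against BPB 1 of 24 was called, lower, against 0.24% of all genes. There 4 of 24 had an unadjusted p under 0.05 (6.75% of all genes), and 1 of these, Hoxb7, was higher (1.94%). The others, Hoxa7, Hoxa13 and Hoxd13, reached 1 FPKM in no control. In the joint test of the 3 groups 2 of 24 were called, Hoxd13 (limma adjusted p = 0.0171) and Hoxa13 (0.0377), against 0.844% of all genes, and 0 with the replicate block or without BPB 2, BPB 3 or control 1.

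The 3 BPB libraries lay wholly above the 3 controls for 12 of 24 Hox genes, against 19.5% of all genes, and wholly below for 0 of 24 (6.1% of all genes). The 12 include all 5 genes that reached 1 FPKM in no control. The 3 BPAF libraries lay wholly above the controls for 9 of 24, against 14.3%, and below for 0 of 24 (2.5%). Hoxa3 and Hoxa7, which reached 1 FPKM in no control, are among the 9. BPAF lay wholly above BPB for Hoxb7 and Hoxb9, 2 of 24, against 6.54%, and wholly below for Hoxa5, Hoxa7, Hoxa13 and Hoxd13, 4 of 24, against 6.41%. Of these 4, Hoxa7, Hoxa13 and Hoxd13 reached 1 FPKM in no control. The median log2 difference of the 24 was 0.52 in BPB and 0.49 in BPAF against control, beside 0.15 and 0.21 over all genes. With the median-of-ratios scaling, which moved the all-gene median by over 0.1, the Hox medians were 0.38 and 0.28 beside -0.04 and -0.02. The mean was above control for 21 of 24 in BPB (63.5% of all genes) and 24 of 24 in BPAF (70.1%), and under that scaling for 20 and 21. BPAF was above BPB for 15 of 24 (59.1%).

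By position, the 9 tested genes of groups 9 to 13 had a median log2 difference of 0.98 in BPB and 1.31 in BPAF, the 9 of groups 5 to 8 had 0.38 in both, and the 6 of groups 1 to 4 had 0.52 in BPB and 0.56 in BPAF. By cluster, the medians were 1.02 in BPB and 0.55 in BPAF for Hoxa, 0.12 and 0.49 for Hoxb, and 0.88 and 0.84 for Hoxd. These are descriptions, and no test between positions or clusters was made.

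**Figure D5:**
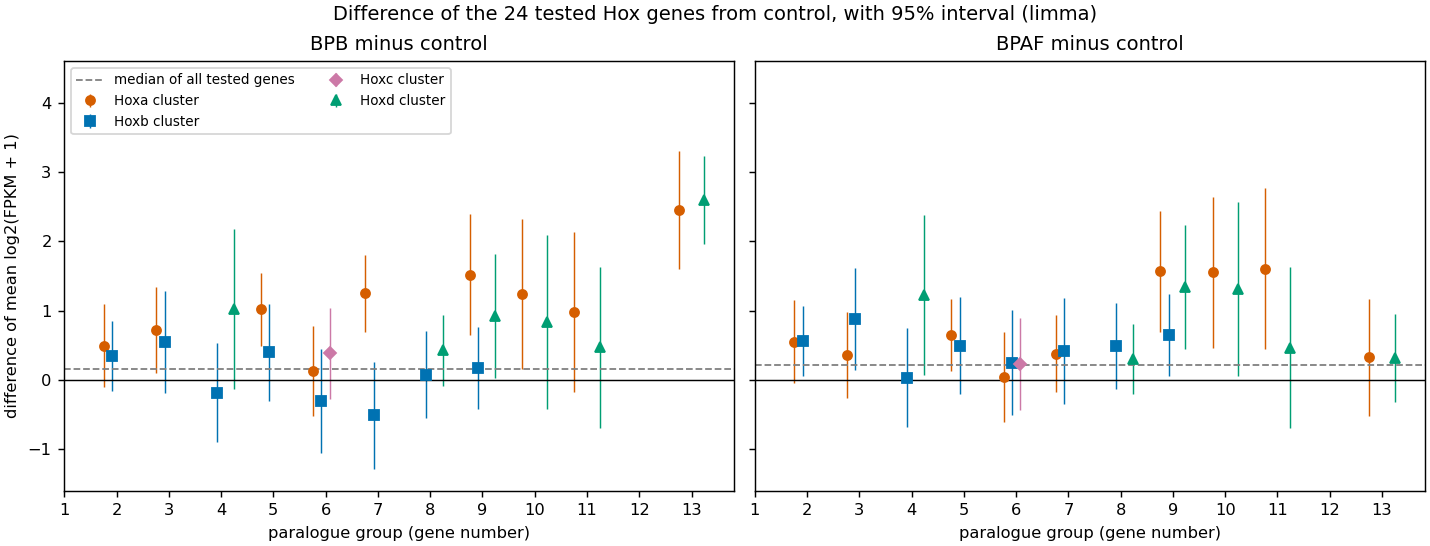
Difference of mean log2(FPKM + 1) from control with its 95% interval (vertical) by gene number (horizontal) for the 24 tested Hox genes, BPB at left and BPAF at right, markers by cluster; the dashed line is the median of all genes tested. The group 13 genes stand highest in BPB (2.45 and 2.59) and close to the median in BPAF (0.33 and 0.31).

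Other position genes were also called in BPB. A list of 26 factors that pattern limbs, gut and body wall had 12 tested members. Of the 12, 10 rose in BPB against control, against 2.05% of all genes tested. Among the 10 were Foxf1, Foxf2, Pitx1, Shh, Tbx2, Tbx4, Tbx5, Tbx18 and Tbx20, while Tbx3 and Barx2 did not pass. In BPAF against control 0 of 12 passed by limma, and 2 had an unadjusted p under 0.05, both higher, beside 10% of all genes. Several members were listed at 0 in all controls and entered the test through BPB. Pitx1, a hindlimb factor, was at 12.2, 17.7 and 13.4 FPKM in BPB and 2.29, 0 and 0.0483 FPKM in BPAF, against 0, 0 and 0.10 FPKM in controls (BPB against control 3.88, SE 0.42, limma adjusted p = 0.0105). Shh, a signal of epithelia such as the urogenital sinus, was at 12.8, 24.8 and 28.4 FPKM in BPB and 13.7, 0 and 0 FPKM in BPAF, while the 3 controls were listed at 0 (4.45, SE 0.89, limma adjusted p = 0.0398). Foxf1, a factor of gut and bladder mesenchyme, was at 14.6, 20.6 and 13.8 FPKM in BPB and 4.97, 1.73 and 3.13 FPKM in BPAF, against 1.07, 1.23 and 0.66 FPKM in controls (3.11, SE 0.31, limma adjusted p = 0.0105). The 10 calls in BPB against control became 0 without BPB 2, BPB 3 or control 1, 5 without control 3, 6 without control 2, 2 with the replicate block and 3 with a pseudocount of 0.01. In BPAF against BPB 5 of the 12 fell, against 0.24% of all genes: Foxf1, Foxf2, Pitx1, Tbx5 and Tbx20. With the replicate block, or the 6 libraries of that comparison, 0 of the 12 were called. With 1 library left out 0 to 9 were. Foxf2, Pitx1, Tbx5 and Tbx20 reached 1 FPKM in no control and passed the filter through the BPB libraries, so nothing is read from these shares.

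The partners and regulators of Hox proteins showed no called change. The 8 tested cofactors of the Pbx, Meis and Pknox families, which bind DNA with Hox proteins, had medians of 0.42 in BPB and 0.39 in BPAF against control, and the smallest p fell to Pbx3 in BPB (0.55, limma adjusted p = 0.245) and Meis3 in BPAF (0.83, limma adjusted p = 0.356). Of 22 chromatin regulators of the Polycomb and Trithorax systems, which keep Hox genes off or on, 0 were called by limma, with 4 in BPB and 5 in BPAF at an unadjusted p under 0.05 against control, all higher, beside 12.8% of all genes higher at that p in BPB and 10% in BPAF. Cbx7 had the smallest p in BPB (1.23, limma adjusted p = 0.0918) and Cbx2 in BPAF (1.31, limma adjusted p = 0.272). Among 13 tested genes of retinoic acid and other axial signals 0 were called by limma, with 2 in BPB and 1 in BPAF at an unadjusted p under 0.05, beside 17.4% of all genes in BPB and 12.8% in BPAF in either direction. Their smallest p fell to Rxra in BPB (1.23, limma adjusted p = 0.0815) and Stra6 in BPAF (2.16, limma adjusted p = 0.304).

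Genes tied to Hoxa10 and Hoxa11 in the uterus were not called either, with 3 of 9 tested at an unadjusted p under 0.05 in each exposed group against control, beside 17.4% of all genes in BPB and 12.8% in BPAF. In each group 1 of the 3 was higher and the others were lower. Among them, Bmp2, a signal of decidualization, was at 8.35, 9.98 and 8.83 FPKM in BPB and 5.05, 0.79 and 3.01 FPKM in BPAF, against 2.24, 1.44 and 2.56 FPKM in controls (BPB against control 1.72, limma adjusted p = 0.0591). Lif, the implantation signal, was lower in BPB (-2.34, limma adjusted p = 0.0619), as was Pgr (-1.71, limma adjusted p = 0.0672). In BPAF Lif had the smallest p (-1.84, limma adjusted p = 0.301), and Pgr was also lower (-1.26, limma adjusted p = 0.304). Of 14 Müllerian duct genes Hand2 came first in BPB (1.38, limma adjusted p = 0.283) and Msx1 in BPAF (1.59, limma adjusted p = 0.321). Of 3 tested homeobox genes beside the clusters, En2 came first in both (-0.60 in BPB, -0.38 in BPAF, limma adjusted p = 0.386 and 0.639). Hotair, the long noncoding RNA of the Hoxc cluster, was at 1.20, 1.18 and 1.23 FPKM in BPB and 0.27, 0 and 0.0373 FPKM in BPAF, against 0.0991, 0 and 0.36 FPKM in controls, and did not pass (0.95, limma adjusted p = 0.0552).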

How the data were processed

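Poly(A) RNA libraries from a stranded kit were sequenced, per the labels' protocols. The deposited values, 1 per symbol and library, were read from their own steps as FPKM, computed by the authors. For the aligner, counting tool, genome build and strand setting: not given in the sources used here. Library totals were recovered from the steps of the values: 91.4% to 93.1% of values of up to 40 reads fell within 0.01 of a whole read. Of 34745 lines, 126 with 1 of 59 repeated symbols were left out; 27 lines carry a date as symbol. Lengths and overlaps came from GENCODE M21 and promoters from RefSeq on GRCm38.p6, whose coordinates may differ from the authors' build.

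limma 3.58.1 in R 4.3.3, with trend and robust estimation, was fitted to log2(FPKM + 1) of 13743 genes that reached 1 FPKM in 3 or more libraries, all 9 libraries in 1 fit with group as the only term. This scale understates changes of low genes. P-values are two-sided and adjusted over all genes by the Benjamini-Hochberg method. The code was tested on simulated data. Members and gene lists were chosen with earlier results of these data known. Named genes are the Hox genes called in a comparison, the 3 of highest mean, the 2 of largest difference in each direction and comparison, and Hoxa9, Hoxa10, Hoxa11 and Hoxa13; from each other list, called genes and the smallest p in each control comparison, of which 1 called gene is not reported here. Other Hox genes given singly, such as Hoxd12, Hoxb13 and Hoxc13, and the motifs capitalised in the promoters, of 4 searched, were chosen after their values were seen. Replicate numbers were checked for pairing by correlating deviations from group means. Same-numbered BPAF and BPB libraries gave r of 0.34, 0.34 and 0.48, and differently numbered ones -0.34 to -0.07. Deviations from a group mean cancel within the group, so part of this contrast is built in. The number was taken to pair BPAF and BPB libraries for the block, from the data and not the labels, and a pairing is not established. Same-numbered BPB and control libraries gave -0.37, -0.13 and -0.40, and BPAF and control -0.16, -0.08 and -0.25. Differently numbered exposed and control libraries gave -0.23 to 0.45, so values this high also arose without a shared number. Depth limits low values: 1 read, as for Hoxc13 in BPB 3 or Hoxa13 in control 2, is the smallest signal above 0 among the Hox genes. For these 2 genes the read number is the smallest whole one that the values allow. Alternatives were other filters, pseudocounts, variance models, scalings, thresholds, the block and each library left out.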

Additional observations from a re-analysis of the deposited data

How the results depend on the processing

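Hox genes called in BPB against control were 3, and 0 with the 5 FPKM filter, 1 with a pseudocount of 0.1, 0 with 0.01, 1 with the replicate block and 5 at an adjusted p under 0.1; with 1 library left out they ranged from 0 to 4. In BPAF against BPB the 1 call became 0 with the 5 FPKM filter, either pseudocount, the replicate block, the 6 libraries alone or the 6 libraries with the block, and 2 at an adjusted p under 0.1; with 1 library left out 0 to 2. In the joint test the 2 calls became 0 with the 5 FPKM filter, either pseudocount or the block, and 1 with no filter; with 1 library left out 0 to 4. The 0 calls in BPAF against control stayed 0. The 5 FPKM filter left 13 Hox genes and dropped Hoxa7, Hoxa13 and Hoxd13 before testing. Its 0 calls therefore say nothing about those genes.

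Over all genes, BPB against control gave 351 calls, and 151 with the 5 FPKM filter, 163 with no filter, 152 and 66 with pseudocounts of 0.1 and 0.01, 19 with the replicate block, 209 with equal FPKM sums, 774 at an adjusted p under 0.1, and 1 to 427 with 1 library left out. BPAF against control gave 3, and 0 with the 5 FPKM filter, the block or the 6 libraries alone, 1 with equal sums, and 1 to 10 with 1 library left out. BPAF against BPB gave 33, and 0 with the 5 FPKM filter, either pseudocount, the block, the 6 libraries alone or those with the block, 11 with no filter, 8 with equal sums, 66 at an adjusted p under 0.1, and 0 to 234 with 1 library left out.

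The Hox median in BPB against control (0.52) was 0.40 with no filter, 0.89 and 0.94 with pseudocounts of 0.1 and 0.01, 0.38 with median-of-ratios scaling, and 0.40 to 0.70 with 1 library left out. In BPAF against control (0.49) it was 0.88 with the 5 FPKM filter, 0.31 with no filter, 0.77 and 0.87 with the pseudocounts, 0.28 with that scaling, and 0.47 to 0.65 with 1 library left out. In BPAF against BPB (0.15) it was 0.33 with the 5 FPKM filter, -0.0106 with no filter and -0.10 to 0.28 with 1 library left out. Signs turned for Hoxa10 in BPAF against BPB without BPAF 3 (-0.0769 to 0.89 over the leave-outs), for Hoxa13 in BPAF against control without BPAF 1 (-0.14 to 0.56), for Hoxa9 in BPAF against BPB with median-of-ratios scaling (-0.0019) and without BPB 2 (-0.15), BPAF 1 (-0.12) or BPAF 3 (-0.23; to 0.51 over the leave-outs), and for Hoxb6 in BPAF against control with that scaling (-0.0399). The cause was not tested. Same-numbered BPAF and BPB libraries were taken as paired. The block covered all 9 libraries, although same-numbered exposed and control libraries gave negative r. Whether it fits comparisons with control was not tested. With the block Hoxa13 and Hoxa7 in BPB against control, Hoxd13 in BPAF against BPB, and Hoxa13 and Hoxd13 in the joint test lost their calls, and no other Hox call changed. The counts for the urothelial and position lists under these alternatives were added after the data were seen.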
